A study of Mus musculus with 7 samples.

Results

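The cells described here are CD8 T cells of mouse liver that carry RNA of the checkpoint receptor PD-1 or of granzyme B or K. They were chosen barcode by barcode with a fixed gate: at least 1 UMI (a counted RNA molecule) over Cd3d, Cd3e and Cd3g, at least 1 of Cd8b1, at least 1 over Pdcd1, Gzmk and Gzmb, and none of Foxp3 or Ncr1. The gate held 837 of 62304 kept barcodes. Barcodes entered only with 500 or more UMIs over 200 or more genes, of which mitochondrial genes took under 20%. All mice had received plasmids for Nras and C-myc by hydrodynamic tail vein injection, a fast, large-volume injection that carries DNA into hepatocytes and here drives liver tumours. The 3 control samples had these plasmids only, and the 4 IL-2/CD25 samples had an IL-2/CD25 expression plasmid as well. Livers were taken 2 weeks after injection, and single cells were sequenced with 10x 3′ chemistry. The labels call the tissue HCC tissue (hepatocellular carcinoma) and give no strain, sex, age or promoter of the plasmids. They also do not say whether each sample was 1 animal, so p-values measure the spread between these samples.

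CD8 T cells recognise peptides on MHC class I and kill target cells with perforin, which opens the target membrane, and granzymes, proteases that enter through it. Naive and central memory cells carry CCR7 and circulate through lymph nodes. After antigen contact the cells divide, raise glycolysis and express granzymes and PD-1. IL-2 acts on T cells through CD25 (Il2ra), CD122 (Il2rb) and the common gamma chain (Il2rg), and the signal runs through JAK1, JAK3 and STAT5.

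Gated cells numbered 190, 26 and 153 in controls 1 to 3 and 114, 88, 109 and 157 in IL-2/CD25 samples 1 to 4. Control 2 is thus the thinnest library in what follows. The median gated cell held 8451.5, 12894 and 9460 UMIs in the controls and between 4570 and 5681 in the IL-2/CD25 samples, so the depth per cell differed between the groups. Pairs of libraries shared 14 to 37 barcodes, at most 0.389% of the smaller library.

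Activated cells made up a much smaller part of the T cells in the IL-2/CD25 samples, while their part of all cells did not differ detectably. Of the CD8b1 T cells (Cd3 and Cd8b1 present, Foxp3 and Ncr1 absent), the gate held 75.4%, 47.3% and 71.5% in the controls. In the IL-2/CD25 samples it held 20%, 15.2%, 14.9% and 20.1%. The groups did not overlap. The means were 64.7% ± 15.2 (SD, n = 3) and 17.6% ± 2.92 (SD, n = 4), a difference of -47.2 percentage points (exact two-sided permutation test over 35 splits, p = 0.0286, the smallest this design can give, and adjusted p = 0.0381 over 4 shares).

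The numerator and the denominator moved differently. CD8b1 T cells outside the gate, with no Pdcd1, Gzmk or Gzmb UMI, numbered 62, 29 and 61 in the controls and 455, 491, 624 and 623 in the IL-2/CD25 samples. Of all barcodes with a Cd3 UMI, gated cells were 18.7%, 6.68% and 17.5% in the controls and 3.63%, 2.68%, 2.76% and 3.17% in the IL-2/CD25 samples (difference of means -11.2 percentage points, exact permutation p = 0.0286, adjusted p = 0.0381). Of all kept barcodes they were 2.00%, 0.358% and 1.77% against 1.57%, 1.00%, 1.04% and 1.51%, where the groups overlapped (exact permutation p = 0.857). When every cell was thinned to 1000 UMIs before gating, the share of CD8b1 T cells was 50%, 20% and 52.1% in the controls and 8.99%, 8.99%, 7.80% and 7.77% in the IL-2/CD25 samples.

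**Figure D1:**
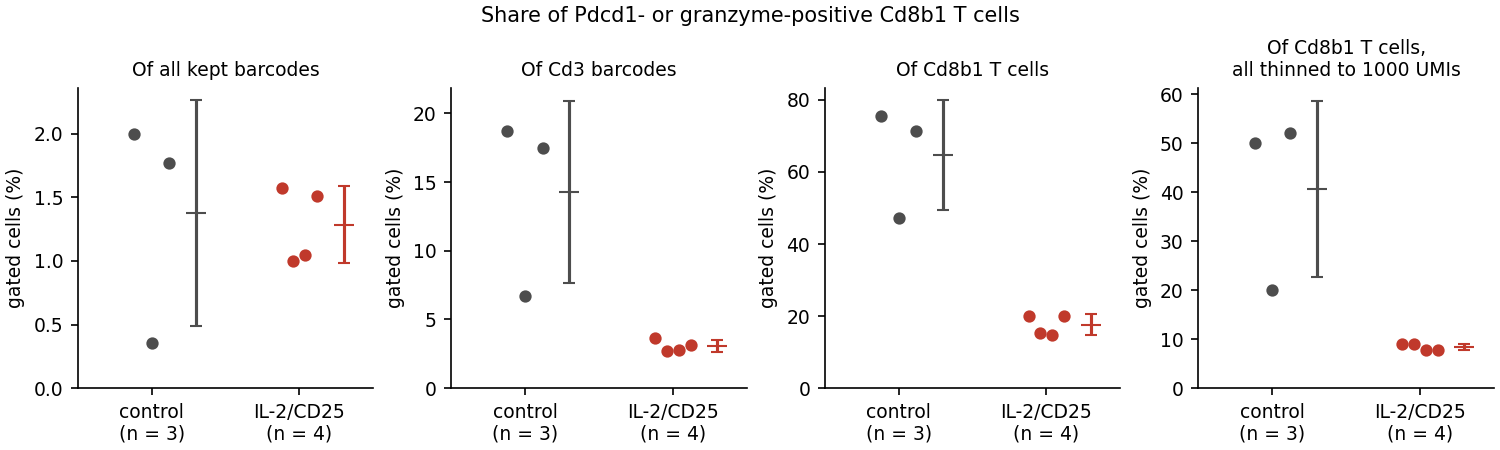
Gated cells as a percentage of all kept barcodes, of Cd3 barcodes and of CD8b1 T cells, and of CD8b1 T cells after thinning each cell to 1000 UMIs. Points are samples and the bars give the mean and SD. The control and IL-2/CD25 points overlap in the first panel and are separate in the other panels, with control 2 the lowest control in each.

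The genes that admitted a cell differed between the groups. These genes define the gate, so their values are a description without a test. Gzmb alone, with neither Pdcd1 nor Gzmk, admitted 14.7%, 11.5% and 17.6% of the gated control cells and 66.7%, 72.7%, 67.0% and 72.6% of those in the IL-2/CD25 samples. A Gzmk UMI was present in 80%, 80.8% and 74.5% of gated control cells and in 27.2%, 23.9%, 22.0% and 22.9% of the others. A Pdcd1 UMI was present in 26.8%, 61.5% and 26.1% against 8.77%, 4.55%, 11.9% and 5.73%. Control 2 stood apart here: it had the highest Pdcd1 share, while Gzmb was found in 42.3% of its gated cells and in 83.5 to 91.7% of those of the other 6 samples.

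**Figure D2:**
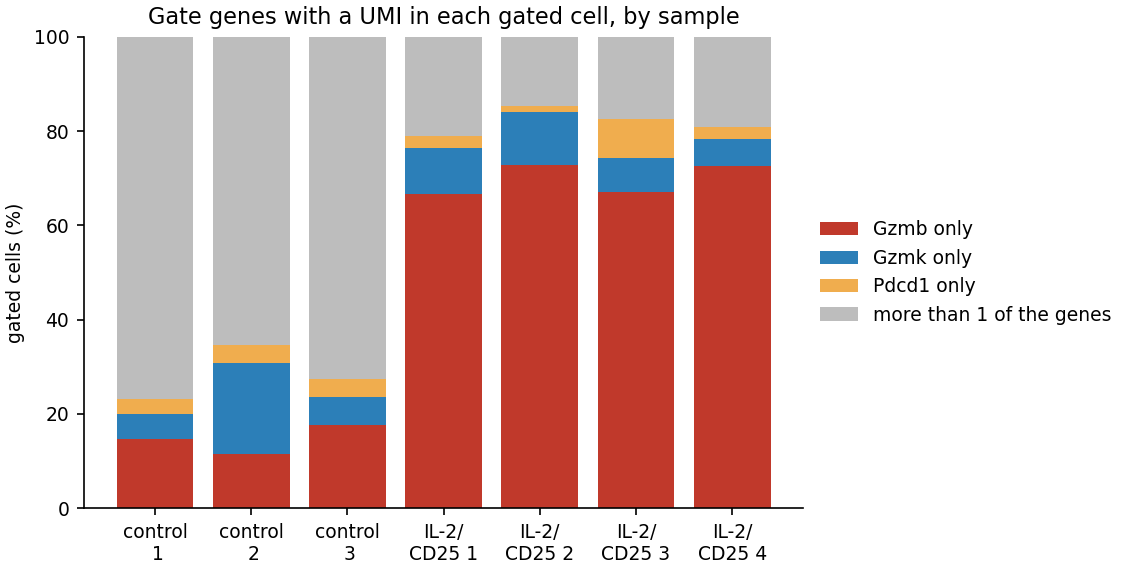
Percentage of gated cells in each sample that held Gzmb only, Gzmk only, Pdcd1 only or more than 1 of these genes. Cells with more than 1 gene are 65.4 to 76.8% of the gated control cells and 14.8 to 21.1% of the gated IL-2/CD25 cells. Cells are not thinned, and the depth per cell differed between the groups.

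Summed over the gated cells, Gzmb was 764, 95.7 and 649 CPM (the UMIs of the gene scaled to a common total per library) in the controls and 449, 537, 360 and 293 CPM in the IL-2/CD25 samples. Gzmk was 191, 287 and 133 CPM against 79.7, 68.9, 78.8 and 57.0 CPM. Pdcd1 was 50.4, 138 and 28.9 CPM against 22.6, 14.2, 35.4 and 12.1 CPM. The Gzmb and Pdcd1 levels overlapped between the groups and the Gzmk levels did not.

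Many IL-2/CD25 cells lay at the edge of the gate. Cells with exactly 1 UMI over the 3 genes, just inside it, were 22, 4 and 21 of the gated control cells and 66, 52, 61 and 103 of the IL-2/CD25 cells. In the IL-2/CD25 samples these edge cells held 559, 636, 594 and 529 CPM of Tcf7. Cells just outside the gate held 715, 712, 780 and 705 CPM. Cells with 10 or more UMIs, only 8, 5, 4 and 4 in number, held 53.6, 0, 0 and 123 CPM. The controls did not show this order. They held 113, 198 and 30.0 CPM at the edge, 43.1, 86.9 and 32.9 CPM outside, and 44.0, 327 and 54.3 CPM at 10 or more. Free RNA can also place a UMI in a cell that does not make it. B cell barcodes, which should lack these genes, held a UMI of at least 1 of them in 1.31%, 1.54% and 0.592% in the controls and in 8.04%, 5.26%, 4.59% and 9.66% in the IL-2/CD25 samples, at median depths of 1942 to 2496 and 2549.5 to 3040 UMIs. Thinned to 1000 UMIs, those shares were at most 0.662% in the controls and 1.08 to 3.81% in the IL-2/CD25 samples. The thinned CD8b1 T cell shares given above were 20 to 52.1% and 7.77 to 8.99%. In IL-2/CD25 sample 4 the 2 thinned shares were 3.81% and 7.77%. The part of free RNA in the gated cells was not tested. Asking for at least 2 UMIs left the difference in the share of CD8b1 T cells at -49.1 percentage points, and leaving Gzmb out of the gate left it at -49.7.

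The gated cells carried the T cell genes the gate did not use. Cd8a, the partner chain of Cd8b1, was 306, 277 and 163 CPM in the control samples and 380, 482, 431 and 418 CPM in the IL-2/CD25 samples. The T cell receptor constant gene Trac was 440, 410 and 250 CPM against 452, 468, 466 and 487 CPM. The controls reached lower Cd8a than the IL-2/CD25 samples, and control 3 was the lowest in both genes.

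RNA of other cell types was present too, and it differed between the groups. The tumour and epithelial keratin gene Krt18 was 638, 50.3 and 1911 CPM in the gated control cells and 1.33, 0, 16.1 and 0 CPM in the IL-2/CD25 cells. Cells with 3 or more UMIs of Krt8 and Krt18 were 26.8%, 11.5% and 62.7% of the gated control cells, and there was 1 such cell among the gated IL-2/CD25 cells, in sample 3. The 7 hepatocyte and tumour markers summed to 95.7 to 3276 CPM among controls and 18.6 to 452 CPM in the IL-2/CD25 samples, with 1 higher and 2 lower of the 3 tested. The 5 neutrophil markers summed to 1012 to 2566 against 104 to 164 CPM (all 3 tested lower). The 7 monocyte and macrophage markers summed to 476 to 856 against 40.5 to 460 CPM (2 of 3 lower), with Ms4a7 at 0 in both groups. The 8 NK markers summed to 896 to 3366 against 2347 to 2530 CPM (2 of 7 higher), the 7 B cell markers to 576 to 678 against 737 to 1674 CPM (3 of 4 higher) and the 5 dendritic markers to 0 to 13.9 against 154 to 276 CPM. Siglech, a gene of plasmacytoid dendritic cells, supplied most of the last sum, while Xcr1 was at 0 in the gated IL-2/CD25 cells. Called doublets were 13.7 to 17.6% of the gated control cells and 10.5 to 29.5% of the others. The part of these cell types in the results below was not tested. List counts are given again without the cells that held keratin, an alternative added after seeing the data.

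The shares moved with these cells. With keratin cells taken out of the gated cells only, the gate held 55.2%, 41.8% and 26.6% of the CD8b1 T cells in the controls, and the difference was -23.7 percentage points (exact permutation, adjusted p = 0.0381). For Cd3 barcodes it was -5.65 points. Taking them out of the CD8b1 T cells as well gave 77.7%, 52.3% and 72.2% against 20.2%, 15.2%, 14.8% and 20.1%, a difference of -49.8 points. With gated cells that held a marker of another immune type taken out of the gated cells only, the differences were -27.1 and -6.48 points. The groups did not overlap in any of these comparisons.

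The gated cells of the groups had very different transcriptomes. With edgeR's quasi-likelihood test on UMI counts summed per sample, 2041 of 8089 genes were higher in the IL-2/CD25 samples (25.2%) and 2218 were lower (27.4%), at a Benjamini-Hochberg adjusted p of 0.05. In all, 52.7% of the genes tested were called, so single calls and the list counts below are read against that background. The groups did not overlap for 52.5% of the genes, 31.4% higher and 21.1% lower in the IL-2/CD25 samples. Without the keratin cells 1383 of 7410 genes were higher and 1607 lower. With Gzmb left out of the gate the counts were 1027 and 1140 of 4415. With each gated cell thinned to 1000 UMIs they were 460 and 528 of 2237. Without cells carrying markers of other types they were 1409 and 1554 of 6918. Scaling by library size alone in place of TMM moved the median log2 fold change over all genes from -0.0080 to 0.20, and fold changes are given on the TMM scale. Fewer gated cells of a kind and less RNA per cell cannot be told apart in these sums.

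Among the named genes with the largest folds, the T cell and NK genes stood on the higher side. Satb1, a chromatin organiser of naive T cells, was 33.4, 37.8 and 18.8 CPM in controls and 745, 719, 775 and 760 CPM in the IL-2/CD25 samples, with no overlap (log2 fold change 4.55, SE 0.22, adjusted p = 3.8e-08). Vipr1, the receptor for vasoactive intestinal peptide, rose by a log2 fold of 4.81 and held 4 UMIs in all controls together. Tnfsf8, which encodes CD30 ligand, went from 9.32 ± 9.62 CPM to 65.3 ± 15.3 CPM (log2 fold change 3.39). Tdrp (4.32), Pde2a (4.12), Rapgef4 (3.56), Klre1 (3.50), Mef2c (3.49) and Bach2 (3.48) also rose. In barcodes with no Cd3 UMI, Mef2c went from 28.1 to 374 CPM and Klre1 from 7.38 to 529 CPM. Vipr1 and Tdrp reached only 1.33 and 1.64 CPM there in the IL-2/CD25 samples. The part of free RNA in these calls was not tested.

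Several genes of that rule are markers of other cells or rest on few molecules. Spib, a B cell and plasmacytoid dendritic cell factor, held 1 UMI in all gated control cells and 64 in the IL-2/CD25 cells, a ratio of 128 with a 95% exact counting interval of 22.2 to 5145. Cd4 rose from 0.868 to 27.8 CPM (log2 4.34). Alb, the hepatocyte albumin gene, rose by 4.11, and IL-2/CD25 sample 3 alone reached 246 CPM where the other 3 held 7.67 to 24.3 CPM. On the lower side, Fkbp11, an endoplasmic reticulum gene, held 645 UMIs in the controls and 2 in the IL-2/CD25 cells, a ratio of 161 with an interval of 44.4 to 1331. The liver coagulation gene F7 held 146 UMIs against 2, a ratio of 36.4 with an interval of 9.90 to 304. Serpine2, a protease inhibitor, held 109 against 3 UMIs, a ratio of 18.1 with an interval of 6.04 to 89.3. Lower calls also went to Mt2 (log2 -5.87), Asns (-5.14), Perp (-5.00), Hmox1 (-4.62), Ecm1 (-4.55), Thop1 (-4.47), Gldc (-4.05), Egln3 (-4.04), Plod2 (-3.90), Cdkn1a (-3.81), Eif4ebp1 (-3.76) and Serpinb6a (-3.72). Control 3, which had the most keratin, was the highest control for each of these 12 genes. In the cells below the keratin limit, Mt2 stayed called at -4.15, Ecm1 at -3.19 and Cdkn1a at -2.06, whereas Fkbp11, F7, Asns, Perp and Hmox1 fell under the filter on low counts.

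Genes of naive and memory T cells were higher. In this list 16 of 18 genes rose, 1 fell and 1 did not pass, with a median log2 fold change of 1.65 against -0.0080 over all genes. Ccr7, the lymph node homing receptor, was 11.3, 25.2 and 13.9 CPM in the control samples and 104, 186, 175 and 167 CPM in the IL-2/CD25 samples (log2 3.23, SE 0.27, adjusted p = 5.9e-06). Bach2, a repressor that restrains effector genes, was 9.55, 12.6 and 2.44 CPM against 85.0, 75.0, 90.0 and 84.4 CPM (log2 3.48, SE 0.35, adjusted p = 1.5e-05). Every IL-2/CD25 sample was above every control for both genes, as for 31.4% of all genes tested. In barcodes with no Cd3 UMI, Ccr7 went from 13.3 to 136 CPM and Bach2 from 3.97 to 108 CPM.

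The interleukin-7 receptor gene Il7r was 79.0, 310 and 39.0 CPM among controls and 787, 754, 616 and 747 CPM in the IL-2/CD25 samples (log2 2.37, SE 0.49, adjusted p = 0.0016). Tcf7, the factor TCF-1 of naive and stem-like cells, was 66.8, 332 and 44.6 CPM against 440, 454, 375 and 429 CPM (log2 1.55, SE 0.50, adjusted p = 0.020). Control 2 was the highest control for both. The Tcf7 call was lost without control 1 (adjusted p = 0.094), without IL-2/CD25 sample 2 (0.0501), with DESeq2 (0.10), with doublets removed (0.0509), with at least 2 UMIs asked for (0.33) and with Gzmb left out of the gate (0.30). Nsg2, a gene of naive T cells, rose by 2.67. Igfbp4 was the member that fell (log2 -2.43), from 56.0, 10.1 and 206 to 7.97, 12.2, 59.5 and 14.3 CPM with overlap, and it was not called without control 3 (-1.02) or without the keratin cells (-0.28). Id3 was 47.4 ± 44.3 CPM against 34.2 ± 9.36 CPM and did not pass. With the keratin cells left out, 14 of 18 genes rose and none was called lower. With Gzmb left out of the gate 10 of 13 rose, and the Il7r difference was 1.48 in place of 2.37.

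Levels also differed by the gene that admitted a cell. Within the IL-2/CD25 samples, cells with Gzmb alone held 884 ± 54.7 CPM of Il7r, 937 ± 24.9 CPM of Satb1 and 509 ± 37.8 CPM of Tcf7 (n = 4). Cells with Pdcd1 or Gzmk held 374 ± 109, 323 ± 70.2 and 228 ± 41.0 CPM of the same genes. In the other direction stood Gzma (973 ± 144 against 2743 ± 354 CPM), Ccl5 (7756 ± 1528 against 16786 ± 4978 CPM), Havcr2 (5.81 ± 4.73 against 47.3 ± 22.3 CPM) and Mki67 (36.6 ± 24.2 against 332 ± 214 CPM). These values compare cells of the same samples split by gate genes and were not tested.

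Cytotoxic genes moved in both directions. Of 19 tested, 7 rose, 4 fell and 8 did not pass (median log2 fold change 0.35), and Gzmc, Gzmd, Gzme and Gzmf were too low to test. Over all genes tested, 25.2% rose and 27.4% fell. Prf1, which encodes perforin, was 85.5, 37.8 and 44.2 CPM in controls and 138, 168, 186 and 167 CPM in the IL-2/CD25 samples (log2 1.28, SE 0.23, adjusted p = 0.00055). Granzyme M (Gzmm, log2 2.04), the death ligands Fasl (1.28) and Tnfsf10 (1.35) and the sphingosine receptor S1pr5 (2.66) rose as well. S1pr5 was low in every sample, at 5.64, 0 and 1.39 CPM in the control samples and 15.9, 40.5, 27.3 and 13.2 CPM in the IL-2/CD25 samples. In barcodes with no Cd3 UMI, Prf1 was 7.18 CPM in controls and 975 CPM in the IL-2/CD25 samples, and S1pr5 0.509 and 109 CPM. The part of free RNA from those cells in the calls was not tested.

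Granzyme A did not pass: Gzma was 2723, 214 and 1762 CPM in the controls, where control 2 was far below the other two, and 1655, 1603, 1402 and 1366 CPM in the IL-2/CD25 samples (log2 -0.27, SE 0.50, adjusted p = 0.68). It was called lower without control 2 (log2 -0.78, adjusted p = 0.0021). B cell barcodes held a Gzma UMI in 4.58 to 6.15% in the controls and 31.9 to 56.5% in the IL-2/CD25 samples. The chemokine Ccl5, abundant in memory CD8 T cells, was 7490, 2706 and 4586 CPM against 12394, 11023, 7650 and 10564 CPM (log2 0.89, adjusted p = 0.016). After removal of the keratin cells, it stood at -0.072 (adjusted p = 0.88). Itgam, an integrin of myeloid and effector cells, fell (-1.72). Without the keratin cells 4 cytotoxic genes rose and 6 fell, of 18 tested, and with each cell thinned to 1000 UMIs 2 rose and 6 fell, of 14 tested.

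Checkpoint and exhaustion genes other than Pdcd1 showed little common movement. Of 14 tested, 3 rose, 2 fell and 9 did not pass, and Tigit, Tox2, Cd200 and Cxcl16 were too low to test. The shares over all genes were 25.2% higher and 27.4% lower. Lag3, an inhibitory receptor for MHC class II, was 16.5, 22.7 and 7.66 CPM among controls and 14.6, 16.2, 11.3 and 26.3 CPM in the IL-2/CD25 samples (log2 0.20, adjusted p = 0.69). Havcr2, which encodes TIM-3, was 22.6, 5.03 and 11.5 against 17.3, 32.4, 16.1 and 8.77 CPM (log2 0.013, adjusted p = 0.98). The groups overlapped for both genes. The counts of this list were the same, 3 higher and 2 lower of 14, with keratin cells left out. The genes that rose were the nuclear receptor Nr4a2 (log2 1.61), the inhibitory receptor gene Vsir (0.72) and Cd244a (0.70). Those that fell included the inhibitory receptor gene Lilrb4a (-0.90). The Cd244a call was lost with any one of 5 samples left out, all but control 1 and IL-2/CD25 sample 4.

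Both signalling chains of the IL-2 receptor were higher, while the wider pathway was mixed. In the list of receptor chains, kinases and STAT5 targets, 9 of 19 tested genes rose, 3 fell and 7 did not pass (median log2 fold change 0.87). Il2rb was 256, 335 and 122 CPM in controls and 599, 541, 611 and 692 CPM in the IL-2/CD25 samples (log2 1.23, SE 0.25, adjusted p = 0.0013). Il2rg was 127, 138 and 62.0 CPM against 272, 257, 267 and 240 CPM (log2 1.12, SE 0.22, adjusted p = 0.0010). The groups were separate for both. Il2rb in barcodes with no Cd3 UMI went from 16.0 to 793 CPM. Il2ra, the gene of CD25, was 20.4, 20.1 and 12.2 CPM against 39.9, 14.2, 48.2 and 28.5 CPM, with overlap (log2 0.78, SE 0.34, adjusted p = 0.071), and was called with Gzmb left out of the gate (log2 1.24). Whether plasmid transcripts were counted under Il2 or Il2ra was not tested, and Il2 itself was too low to test.

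Downstream of the receptor, Jak1 went from 359, 357 and 215 CPM to 1006, 855, 760 and 885 CPM (log2 1.33, SE 0.19, adjusted p = 0.00011). The survival kinase gene Pim2, a STAT5 target, went from 4.77, 10.1 and 5.22 CPM to 37.2, 38.5, 27.3 and 45.0 CPM (log2 2.51, SE 0.33, adjusted p = 7.0e-05), and the feedback inhibitor Socs3 rose by 1.60. Bcl2l1, which encodes the survival protein BCL-XL, fell (-1.51), as did the phosphatase gene Dusp6 (-1.84). Myc was 437, 98.2 and 817 CPM in the control samples and 79.7, 38.5, 27.3 and 53.7 CPM in the IL-2/CD25 samples (log2 -3.42, SE 0.54, adjusted p = 0.00026). All mice had received a C-myc plasmid, and whether its transcripts are among these counts was not tested. With the keratin cells left out, the Myc difference was -1.23 and still called, and 7 genes of the list rose and 4 fell.

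**Figure D3:**
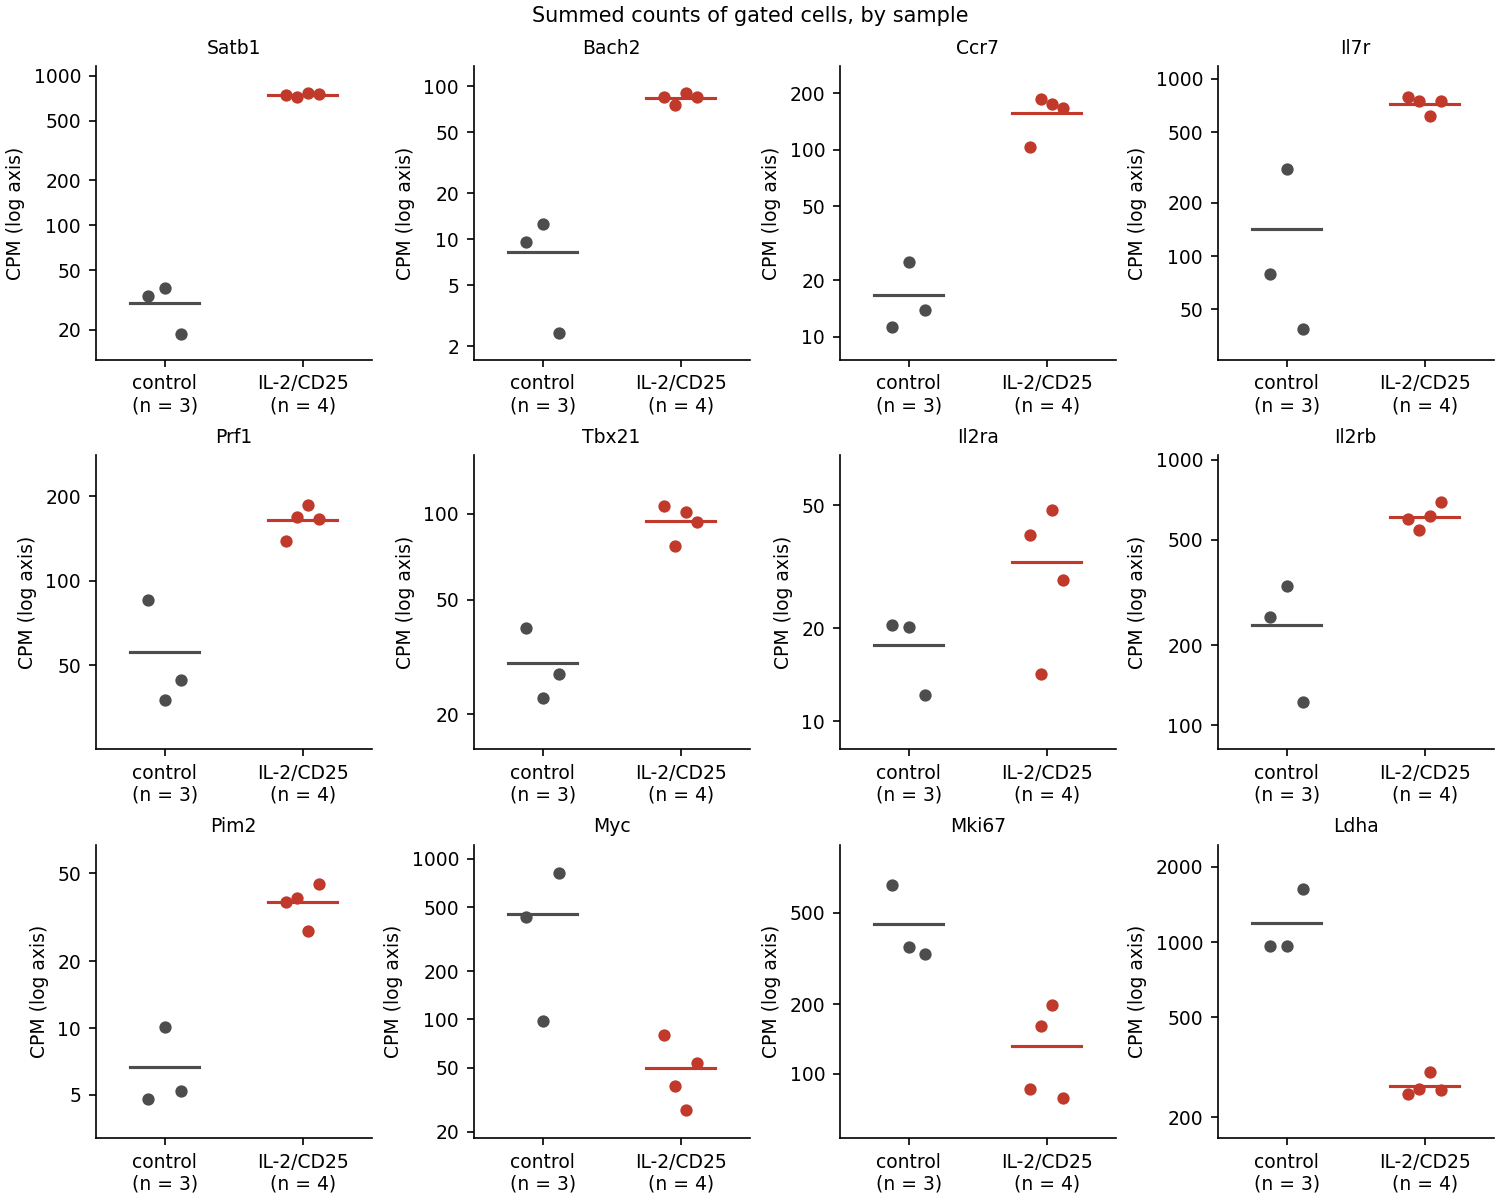
Summed counts of the gated cells in CPM, on log axes, for 12 genes of the naive, cytotoxic, IL-2, proliferation and glycolysis lists. Points are samples and lines are group means. The groups are separate in every panel except Il2ra, where IL-2/CD25 sample 2 (14.2 CPM) lies within the control range. Over all genes tested the groups are separate for 52.5%.

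Most genes of a list induced by T cell receptor signals rose, and the risen ones named here were also higher in the pooled barcodes with no Cd3 UMI. Of the 17 tested, 12 rose, 1 fell and 4 did not pass (median log2 fold change 1.21). Egr3, an early response factor, was 4.77, 2.52 and 3.83 CPM among controls and 33.2, 52.7, 41.8 and 19.7 CPM in the IL-2/CD25 samples (log2 2.87, SE 0.39). Tnfaip3, which encodes the NF-kappaB inhibitor A20, rose by 2.31, Nr4a3 by 2.26, Nfkbid by 1.98, the AP-1 member Junb by 1.61 and the phosphatase gene Dusp2 by 1.46. In the pool of barcodes with no Cd3 UMI, Egr3 was 6.89 CPM in controls and 64.4 CPM in the IL-2/CD25 samples. Tnfaip3 was 26.1 and 263 CPM there, and Nr4a3 10.3 and 69.5 CPM. The mix of cell types in that pool differed between the groups, and whether a single type moved was not tested. After removal of the keratin cells, 12 of 17 rose and none fell.

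Of 15 effector transcription factors tested, 6 rose, 1 fell and 8 did not pass, beside 25.2% higher and 27.4% lower over all genes. Tbx21, which encodes T-bet, was 39.9, 22.7 and 27.5 CPM in controls and 106, 77.0, 101 and 93.2 CPM in the IL-2/CD25 samples (log2 1.38, SE 0.21, adjusted p = 0.00019). Irf8 (1.52), Stat4 (1.30), Ikzf3 (1.07) and Runx3 (1.06) rose, and Batf, an AP-1 factor of effector cells, fell (-1.01). The Irf8 call was lost without cells carrying markers of other types (log2 0.11) and with Gzmb left out of the gate (0.11). The list counts did not change with keratin cells left out. Of the 11 costimulatory genes tested, 5 rose and none fell, among them Icos (1.90), Slamf1 (1.32), Cd226 (1.21), Cd69 (1.10) and Tnfrsf1b (0.88). In the cells below the keratin limit, 3 rose and 2 fell.

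Among cytokines and chemokines, 4 of 9 tested rose and 2 fell, beside 25.2% higher and 27.4% lower over all genes. Ifng was 48.2, 30.2 and 34.5 CPM in the control samples and 86.4, 62.8, 117 and 84.4 CPM in the IL-2/CD25 samples (log2 0.96, adjusted p = 0.0030), and the call was lost without the keratin cells (0.11). Ccl4, a chemokine of activated T cells, rose by 1.91 and stayed at 1.85 without them. Mif, a cytokine many cells release, fell from 912, 1191 and 1417 CPM to 193, 182, 195 and 195 CPM (log2 -2.83). The myeloid chemokine Ccl9 fell by 3.24, and Il16 rose by 0.70. Leaving keratin cells out gave 2 higher and 2 lower of 9. Of 18 homing and residency genes 10 rose and none fell. The collagen-binding integrin Itga1 (log2 2.63), the chemokine receptors Cxcr4 (2.49) and Cxcr6 (1.44), and Rgs2 (1.70), Gpr183 (1.30) and Itgal (1.05) led them. Leaving keratin cells out gave 7 higher and 2 lower of 18 (median log2 fold change 0.30 in place of 1.00), and leaving out cells with markers of other types gave 9 higher and 3 lower of 19. Cxcr3, the receptor for interferon-induced chemokines, was 96.8, 88.1 and 76.2 CPM against 99.6, 113, 104 and 103 CPM and did not pass (log2 0.073, adjusted p = 0.71). Without the keratin cells it was called lower (-0.59, adjusted p = 0.042).

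NK-type receptors rose in 13 of 16 genes tested, and 1 fell. Klra7, a Ly49 receptor, was 3.04, 0 and 1.39 CPM among controls and 73.1, 97.3, 57.9 and 42.8 CPM in the IL-2/CD25 samples (log2 4.80). Klra1 rose by 3.90. Klra6 held 3 UMIs in all gated control cells and 67 in the others, a ratio of 44.8 with an interval of 14.7 to 223. Klra8 held 2 and 82 UMIs (82.2, interval 22.0 to 690) and Klra9 held 1 and 55 (110, interval 19.0 to 4433). Fcgr3, an Fc receptor of NK and myeloid cells, fell by 3.99. Barcodes with no Cd3 UMI moved too, with Klra7 at 4.21 CPM in controls and 274 CPM in the IL-2/CD25 samples. Klra genes are near-identical copies, so reads may have been split between them. Leaving keratin cells out gave 11 higher and 1 lower of 14. Leaving out cells with markers of other types gave 6 higher and 1 lower of 10 (median log2 fold change 1.23 in place of 3.03). With each cell thinned to 1000 UMIs, 4 of 8 rose and none fell.

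Genes of cell division were lower in nearly the whole list. In this list 31 of 32 genes fell and none rose, with a median log2 fold change of -2.24, and Kif23 did not pass (57.0 ± 31.7 against 40.6 ± 15.4 CPM). Mki67, the Ki-67 gene of cycling cells, was 658, 355 and 331 CPM in the control samples and 86.4, 162, 199 and 78.9 CPM in the IL-2/CD25 samples (log2 -1.99, SE 0.30, adjusted p = 0.00019). Birc5, which encodes survivin, was 261, 194 and 174 CPM against 37.2, 20.3, 45.0 and 19.7 CPM (log2 -2.98, SE 0.25, adjusted p = 4.8e-06). Cdc20, an activator of the anaphase-promoting complex, fell by 2.75, cyclin B1 (Ccnb1) by 2.75, the ubiquitin ligase partner Ube2c by 2.71, the microtubule regulator Stmn1 by 2.63 and thymidylate synthase (Tyms) by 2.61. Each of the 7 genes named here as lower was lower in every IL-2/CD25 sample than in every control, as were 21.1% of all genes tested. After removal of the keratin cells, 31 of 31 genes fell. With Gzmb left out of the gate 17 of 30 fell, and the Mki67 difference was -0.88 and not called (adjusted p = 0.071).

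A count of cells gave the same order. With each gated cell thinned to 1000 UMIs, cells with at least 2 UMIs over the proliferation list were 57.9%, 38.5% and 50.7% in the controls and 9.65%, 9.09%, 14.7% and 10.9% in the IL-2/CD25 samples. The means were 49.0% ± 9.82 (SD, n = 3) and 11.1% ± 2.52 (SD, n = 4), a difference of -37.9 percentage points (exact permutation p = 0.0286, adjusted p = 0.0381). Among CD8b1 T cells outside the gate the same measure was 27.4%, 34.5% and 31.7% against 9.89%, 9.05%, 8.84% and 8.35%. Of these control cells outside the gate, 35.5%, 27.6% and 63.9% held keratin. Cells past the limit of 2 UMIs are called dividing here, but their share is not a rate of division. Outside the gate in the IL-2/CD25 samples Mki67 was 3.57 to 17.3 CPM, yet 33.2 to 37.4% of the thinned cells held at least 1 UMI of the list. Neither share of dividing cells was computed again without the keratin cells, and the part of tumour RNA in them was not tested. On unthinned counts the difference in gated cells was -20.5 percentage points (adjusted p = 0.076). With the gate itself applied to thinned counts it was -23.2 (adjusted p = 0.38), where control 2 had 3 gated cells.

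**Figure D4:**
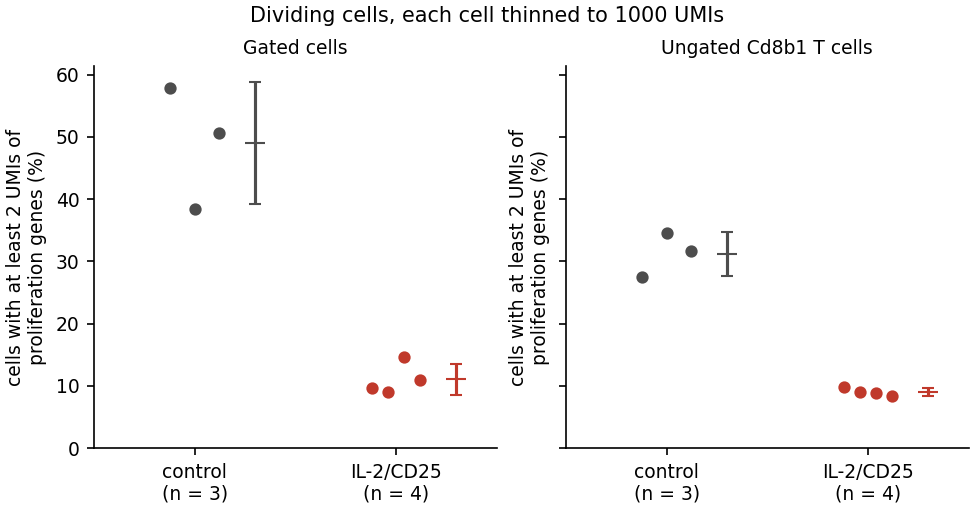
Percentage of cells with at least 2 UMIs over the proliferation genes, each cell thinned to 1000 UMIs, in gated cells and in CD8b1 T cells outside the gate. Points are samples and bars are the mean and SD. Controls lie above the IL-2/CD25 samples in both panels, with gated means of 49.0% and 11.1%. Cells that held keratin are included.

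Many of the proliferation genes hold the same short motifs upstream of their start. In vertebrates many genes of the G2 and M phases carry CCAAT boxes, bound by NF-Y, and a cell cycle genes homology region such as TTTGAA or TTTAAA close to the start of transcription. In RefSeq's promoter table (GRCm38.p6), 28 of the 32 proliferation genes had a window, and in the 150 bases before the start, on either strand, 78.6% of these held CCAAT, 39.3% held TTTGAA or TTTAAA and 32.1% held both. Over all 32851 windows these shares were 24.5%, 14.7% and 3.60%. CCAAT was in 46.2% of 13 oxidative phosphorylation windows, in 26.7% of 15 glycolysis windows and in none of 15 naive and memory windows. The windows below belong to the genes with the most negative fold change that held both motifs, and show how the boxes are spaced. Capitals mark the motifs, and ATTGG and TTCAAA are reverse-strand matches of CCAAT and TTTGAA.

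Cdc20 (chr4:118437344-118437493, minus strand): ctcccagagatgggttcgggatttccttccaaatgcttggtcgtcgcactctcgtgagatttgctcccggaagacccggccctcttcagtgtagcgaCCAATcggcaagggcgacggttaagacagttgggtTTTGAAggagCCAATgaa
Ccnb1 (chr13:100786487-100786636, minus strand): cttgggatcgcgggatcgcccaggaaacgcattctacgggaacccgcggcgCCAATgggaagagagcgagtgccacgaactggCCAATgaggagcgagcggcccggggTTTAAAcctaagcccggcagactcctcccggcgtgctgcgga
Ube2c (chr2:164769779-164769928, plus strand): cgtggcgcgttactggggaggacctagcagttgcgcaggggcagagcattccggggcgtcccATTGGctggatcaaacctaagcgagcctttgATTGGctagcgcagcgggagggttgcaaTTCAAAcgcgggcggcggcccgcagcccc
Cdk1 (chr10:69352913-69353062, minus strand): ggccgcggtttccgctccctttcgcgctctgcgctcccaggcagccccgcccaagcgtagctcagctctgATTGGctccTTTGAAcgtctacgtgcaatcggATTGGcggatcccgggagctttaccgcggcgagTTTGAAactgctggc

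Coordinates follow GRCm38.p6. A match to these letters is a description of the sequence and not a measured site. The motifs do not overlap each other in these windows.

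Metabolic genes were lower. In glycolysis 13 of 16 genes fell and 2 rose (median log2 fold change -2.13). Ldha, lactate dehydrogenase A, was 967, 964 and 1636 CPM among controls and 247, 259, 302 and 257 CPM in the IL-2/CD25 samples (log2 -2.39, SE 0.22, adjusted p = 9.3e-06). Gapdh was 1962, 2369 and 2751 CPM against 472, 492, 500 and 500 CPM (log2 -2.48, SE 0.16). The lactate exporter Slc16a3 (-3.21), hexokinase 2 (Hk2, -3.09), Tpi1 (-2.64) and Pgk1 (-2.49) fell, and the glucose transporter Slc2a3 rose (0.88). In the cells below the keratin limit, the count was again 13 lower and 2 higher, and Ldha stood at -1.66.

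Of 18 genes of oxidative phosphorylation 17 fell and none rose (median -1.37), also without the keratin cells, and Sdha did not pass (114 ± 25.6 against 131 ± 12.1 CPM). The ATP synthase gene Atp5g1 was 334, 363 and 342 CPM in controls and 113, 134, 121 and 130 CPM in the IL-2/CD25 samples (log2 -1.67, SE 0.15). Cox5a (-1.66), Uqcrc1 (-1.64), Sdhb (-1.63), Atp5b (-1.61) and Ndufb8 (-1.54) were close to it. The pool of barcodes with no Cd3 UMI moved alike. Atp5g1 was 333 CPM there in the control samples and 117 CPM in the IL-2/CD25 samples, and Ldha 1575 and 197 CPM. Macrophage barcodes in that pool (Csf1r and C1qa present, Ncr1 absent) numbered 1233, 735 and 839 in controls and 40, 18, 37 and 32 in the IL-2/CD25 samples. Whether a single cell type of the pool moved alike was not tested. In the list of amino acid and growth genes 9 of 15 fell and 3 rose, and 9 fell and 2 rose with keratin cells left out. The translation repressor Eif4ebp1 fell by 3.76, spermidine synthase (Srm) by 2.73, Nme1 by 1.87, ornithine decarboxylase (Odc1) by 1.87, the amino acid transporter Slc7a5 by 1.61 and the nucleolar gene Npm1 by 1.39.

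**Figure D5:**
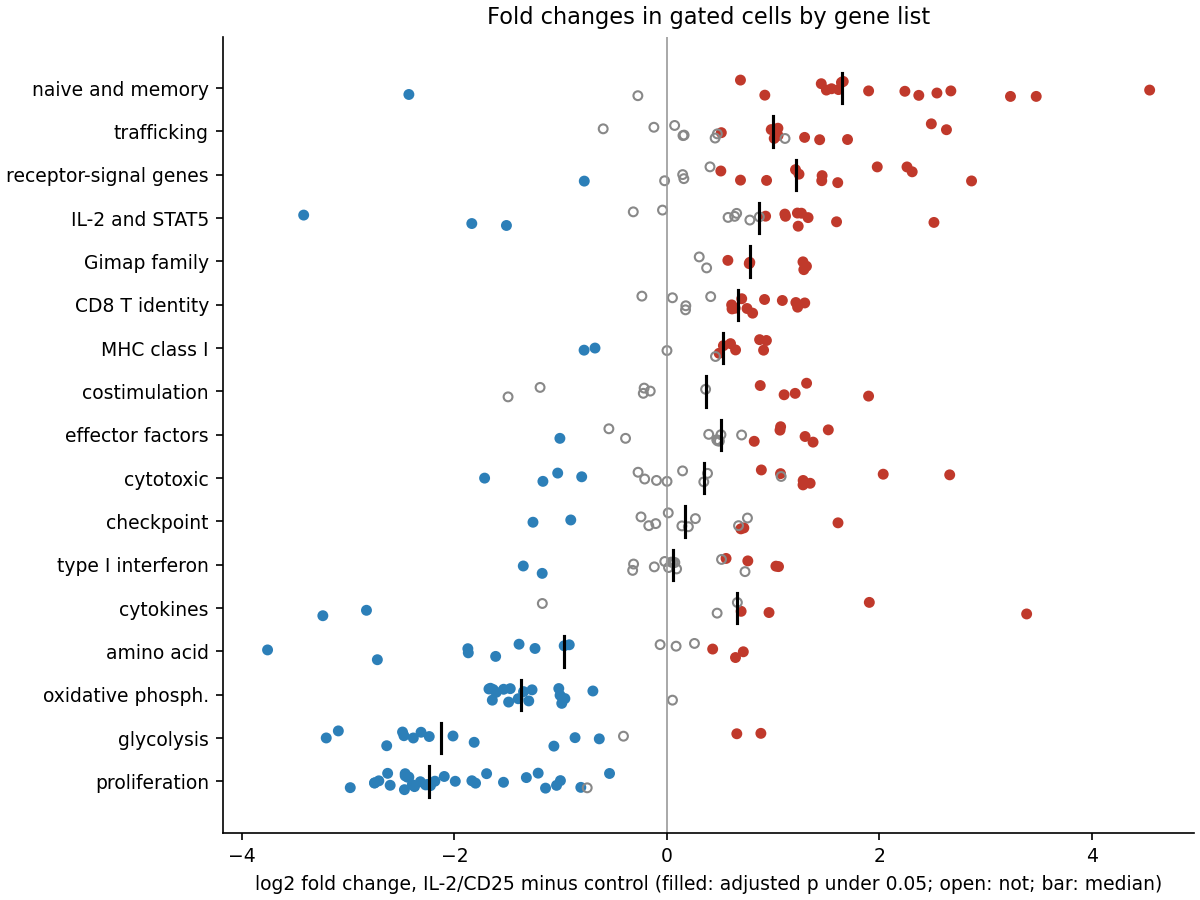
Log2 fold change of each tested gene in the gated cells, by gene list, IL-2/CD25 minus control. Filled points passed an adjusted p of 0.05 and bars are list medians. The naive and memory list has a median of 1.65, and the proliferation list, at -2.24, has no filled point above 0.

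The remaining lists moved less or depended on the keratin cells. Of 16 T cell identity genes 11 rose and none fell, among them the kinase Lck (log2 0.81), the costimulatory receptors Cd27 (1.23) and Cd28 (1.21), Cd6 (1.09) and Bcl11b (0.92). With the keratin cells left out, 6 rose and 2 fell. With each cell thinned to 1000 UMIs, 3 of 16 rose and none fell (median 0.30 in place of 0.67), and of the MHC class I genes described next 2 rose and 2 fell. Of 11 MHC class I genes 7 rose and 2 fell, with H2-K1 at 1078, 1156 and 675 CPM against 2030, 1913, 2355 and 2114 CPM (log2 0.94). H2-Q7 (0.87), Tapbp (0.91) and B2m (0.65) rose and the immunoproteasome genes Psmb8 (-0.78) and Psmb9 (-0.68) fell. H2 genes are close paralogs, so reads may have been split between them. Without the keratin cells 1 rose and 3 fell. Of 8 Gimap genes, GTPases of lymphocyte survival, 6 rose, with Gimap8 (1.31), Gimap3 (1.29) and Gimap6 (1.28) ahead, and 3 rose without the keratin cells. Among 17 interferon-stimulated genes 4 rose (among them Ifit1bl1, Bst2 and Ifi203) and 2 fell (Ifi27l2a and Isg15), against 2 and 7 of 18 without the keratin cells. Over all genes tested 25.2% were higher and 27.4% lower, and without the keratin cells 1383 and 1607 of 7410. The share of interferon-stimulated genes that rose was thus near the share over all genes.

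Group differences were also compared with those in CD8b1 T cells outside the gate, with the sample as a block. Of 12080 genes tested, 2314 differed between the cell classes (19.2%), with the difference more positive in gated cells for 874 (7.24%) and more negative for 1440 (11.9%). Outside the gate alone, 75.2% of 11545 genes were called between the groups, 38.3% higher and 36.9% lower in the IL-2/CD25 samples. The division genes Hmmr and Bub1 fell less in gated cells (log2 -2.43 and -2.44) than outside the gate (-7.69 and -7.66), with interactions of 5.38 and 5.26. Gzmm and Cxcr6 rose less inside the gate (2.04 and 1.44) than outside it (5.88 and 5.61), with interactions of -3.75 and -4.16. The folds outside the gate rest on very low levels in 1 group. Hmmr and Bub1 were 0.442 and 0.177 CPM there in the IL-2/CD25 samples, and Gzmm and Cxcr6 1.93 and 1.76 CPM in controls. The cells outside the gate in the controls were poor in T cell RNA, however, with Cd8a at 20.2, 83.6 and 14.6 CPM against 380 to 476 CPM in the IL-2/CD25 samples, and 35.5%, 27.6% and 63.9% of them held keratin. With Cd8a asked for as well, 62 of 8767 genes were called, 38 of them among the 2314. Without the keratin cells 270 of 8481 were called, 102 of them among the 2314. The difference was more positive in gated cells for 191 of these 270 and more negative for 79. Without control 1 the count was 1364, of 11766 tested.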

How the data were processed

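Single cells of 7 mouse liver samples were sequenced, and the deposited files hold, for each sample, a matrix of whole-number UMI counts per gene and barcode over 55357 features. Per the submitters' processing notes, the authors used bcl2fastq 5.0.1 and Cell Ranger 7.0.0; the genome build is not given in the sources used here. Kept barcodes numbered 7244 to 10439 per sample. Before the filter there were 7263 to 10637 barcodes per sample, with 37653600 to 181755269 UMIs in total. Gated cells were summed per sample and tested with edgeR 4.0.16 (TMM factors, filterByExpr, quasi-likelihood test, Benjamini-Hochberg adjustment) in R 4.3.3, leaving out the 9 gate genes. Called doublets, from a scrublet score in scanpy 1.11.5 at 0.8% per 1000 barcodes, were kept. Libraries with under 20 cells were left out of a fit. Shares were compared with exact permutation tests over samples, two-sided. CPM is computed from the summed counts. Intervals on UMI ratios cover counting error only. The edgeR script was tested on simulated data.

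The members and gene lists were chosen with earlier results of these data known. Genes named by rule were up to 15 per direction, past the threshold, at 20 CPM or more in the higher group, with groups that did not overlap, taken in order of fold change, leaving out gate, mitochondrial, ribosomal, haemoglobin and immunoglobulin genes, unnamed models and genes over 5 times higher in barcodes with no Cd3 UMI. Some genes of the rule are not reported here. The interaction gave up to 5 per direction, and each list up to 6 called members plus members that did not pass. Lag3, Havcr2, Gzma, Il2ra, Cxcr3, Il7r, Tcf7, Il2rb, Il2rg, Mki67 and Ccl5 were singled out after their values were seen. Alternatives were other scaling, filters, gates, depths, doublet removal, DESeq2 1.42.0, a replicate block and each sample left out.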

Additional observations from a re-analysis of the deposited data

Results flagged for a closer look

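In 5 of 140 values checked, 1 of the 4 IL-2/CD25 samples lay far from the other 3, by a gap above Dixon's 95% critical share of the group's range (chance gives this in about 1 of 20 groups). IL-2/CD25 sample 3 was the one for Alb (246 CPM), Plod2 (12.9 CPM), Igfbp4 (59.5 CPM) and Odc1 (148 CPM). Sample 2 stood apart for Isg15 (4.05 CPM).

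The group difference of 10 named genes differed between gated cells and CD8b1 T cells outside the gate by edgeR's interaction test. In log2 units the interaction was 6.04 for Asns (adjusted p = 0.041), 5.38 for Hmmr (0.00012), 5.26 for Bub1 (0.00017), 4.93 for Dnph1 (0.019) and 4.64 for Ube2c (0.00057). It was -4.30 for Art2b (0.00030), -4.16 for Cxcr6 (2.8e-05), -4.05 for Dtx1 (5.1e-05), -3.75 for Gzmm (5.6e-05) and -3.58 for Slain1 (0.00026). Asns was at 0 CPM outside the gate in the IL-2/CD25 samples, so its interaction depends on the prior count. Hmmr, Bub1, Dnph1 and Ube2c were at 0.442, 0.177, 0.0991 and 1.24 CPM there, so their interactions rest on very low levels. Art2b, Cxcr6, Dtx1, Gzmm and Slain1 were at 0.990 to 2.57 CPM outside the gate in controls. None of the 10 was called when Cd8a was asked for as well.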

How the results depend on the processing

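The differences in the shares of Cd3 barcodes and of CD8b1 T cells kept their direction under every alternative run, but shrank to -5.65 and -23.7 percentage points with keratin cells out of the gated cells only, and to -6.48 and -27.1 without cells that held other-type markers. With keratin cells out of both counts the second was -49.8. With 1 sample left out they ranged from -15.0 to -9.04 and from -55.9 to -41.8 percentage points, and that of dividing cells from -43.2 to -33.5, none of which can pass in so few samples (adjusted p 0.0889 to 0.133). The share of all kept barcodes ranged from -0.599 to 0.220 and was 0.469 without the keratin cells. The share of dividing cells differed by -20.5 on unthinned counts and by -23.2 with the gate on thinned counts.

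Against 4259 genes called, 1375 were called with the gate on thinned counts, 988 with thinned cells, 2722 with at least 2 UMIs and 2167 with Gzmb left out, all with fewer genes tested, and 3539 to 4688 with 1 sample left out. DESeq2 called 3488. For the interaction 2314 genes were called, against 41 with the thinned gate and 90 with thinned cells. The count was 417 without cells with markers of other types, 62 with Cd8a asked for too and 270 without keratin cells. It was 1364 to 2574 with 1 sample left out. Each fit tested its own set of genes, and some genes it called were not among the 2314. The cause of these changes was not tested. The Cd8a and both keratin alternatives were chosen after seeing the data. Fits on the thinned gate and without other-type markers had no control 2.

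Directions turned as follows, with the cause not tested. On the thinned gate Itgam was 0.40, Gpr183 -0.022, Cxcr3 -0.28 and the Cxcr6 interaction 0.80. Without other-type markers Cd244a was -0.077, Ifng -0.12, Bst2 -0.75, Lag3 -0.81 and Cxcr3 -0.51. Without keratin cells Ifi203 was -0.099, Ccl5 -0.072, Lag3 -0.47, Havcr2 -0.11 and Cxcr3 -0.59. With Cd8a asked for, Bst2 was -0.055, Lag3 -0.20, Havcr2 -0.064 and Cxcr3 -0.11. With Gzmb left out Bst2 was -0.34 and Gzma 0.33, and with at least 2 UMIs Gzma was 0.35. Without doublets Lag3 was -0.30 and Cxcr3 -0.038, with thinned cells Cxcr3 was -0.69, and without a filter Havcr2 was -0.014. With 1 sample left out Gzma ranged from -0.78 to 0.27, Havcr2 from -0.32 to 0.52 and Lag3 from -0.18 to 0.38. Of 136 named genes, 136 kept direction and call with RLE factors and 106 without keratin cells, where 14 lost the call.

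Same-numbered samples showed little common deviation (r = 0.0017, -0.0017 and 0.094), though the last value was the highest of all pairs compared. So few pairs cannot decide whether the numbers pair the samples. With the replicate number as a block 3592 genes were called, Lag3 was -0.23, Gzma 0.23, and of the named genes Cd244a lost its call.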
